A study of Camellia sinensis with 24 samples.

Results

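The genes described here are the tea genes whose annotation holds the Pfam domain PF03492, named SAM dependent carboxyl methyltransferase, which defines the SABATH methyltransferases and with them the caffeine synthases. The domain was found in 40 of the 48505 genes counted. Of these 40 members, 35 belong to the 33932 annotated models and the authors assembled the other 5 from their reads. SABATH enzymes move a methyl group from S-adenosylmethionine to a small acceptor. Some members methylate the carboxyl group of plant hormones and scents such as salicylic acid and jasmonic acid, and others methylate ring nitrogens of xanthine derivatives, the steps that give theobromine and caffeine in tea. These alkaloids are best known from young tea leaves. The annotation names the domain and no substrate, so no member can be called a caffeine synthase or a hormone methyltransferase from these data.

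RNA was sequenced from the roots of 2 tea genotypes, “1511”, which is tolerant to low K, and “1601”, which is intolerant. Each is a single genotype grown from cuttings, so a difference between them is a difference between 2 clones. Plants grew for 60 days in hydroponic boxes with K and then for 5 days in boxes whose roots were spread over separate compartments. Sp.SK is the 0 mM K2SO4 side of plants whose other side, Sp.NK, held 1 mM K2SO4. U.SK had 0 mM and U.NK 1 mM in both compartments. Each of the 8 groups had 3 libraries, and a box held 12 plants. The study set up 3 replicates of each treatment, but neither its methods nor the labels tie a library to a box, so the p-values measure the spread between these libraries only. The libraries held 13214833 to 26309637 counts on genes, with a median of 18066086. Library 2 of “1511” U.NK stood apart from library 3 of its group more than any other pair of replicates did. The r of log2 values across genes was 0.8827, against 0.9054 to 0.9779 in the other pairs. Counts of called members for U.SK against U.NK are given with and without library 2 of “1511” U.NK. Fold changes, and calls in other gene lists, are given with it only. Markers of green tissue were counted, and the 26 chlorophyll a-b binding genes summed to between 125.1 and 347.5 CPM (counts scaled to library size) in “1511” and between 296.9 and 1594 CPM in “1601”.

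Levels are given as CPM normalized by edgeR's TMM factors, and as the authors' FPKM, which also divides by gene length, where members are set against each other. A gene was called changed at an adjusted p-value under 0.05 in edgeR's quasi-likelihood test. Counts of members from alternative or leave-one-out fits, and counts at an unadjusted p under 0.05, are given without the share of all genes. They show only how a count depends on the fit or on the threshold. Of the 40 members, 24 had enough counts to be tested, among 35557 genes tested in all. The 16 members left out had at most 32 counts in any library. Over all 24 libraries together, 9 members had 10 counts or fewer, and 3 of them (TEA008368, TEA024636 and TEA000884) had none, against 7.44% of all genes without a count. In the scaffold-level genome used by the authors, 23 members lay within 200 kb of another member, on 9 scaffolds. Of these neighbours 17 of 23 had more than 10 counts, and of the members that lay alone 14 of 17 had. The annotated members had a median of 3 exons and a coding length of 1008 bases (429 to 1461 bases). PF03492 was the only domain in 38 members. The exceptions were TEA010123, which also carries an FKBP-type isomerase domain, and TEA032708, which also carries a protein kinase domain.

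Root expression of the family came mostly from 4 genes, TEA028050, TEA014697, TEA015791 and TEA021081. They held 86.7% of the summed FPKM of all members over the 24 libraries, and between 72.3% and 93.41% in single libraries. By mean FPKM, 16 members were above 1. TEA028050 (scaffold 155, bases 356664 to 359302, plus strand, 3 exons) had the highest mean, 156 FPKM. In “1511” it averaged 246.8 ± 72.7 FPKM on Sp.SK, 308.9 ± 136.5 FPKM on Sp.NK, 10.5 ± 2.62 FPKM on U.SK and 119.9 ± 122.5 FPKM on U.NK (SD, n = 3 each). In “1601” it averaged 198.7 ± 81.9, 152.3 ± 67.2, 102.9 ± 41.3 and 109.0 ± 21.96 FPKM in the same order (SD, n = 3 each). Sp.NK and Sp.SK of “1511” did not differ beyond their spread. In “1601” the gene was called in none of the comparisons made between conditions. Its Sp.SK libraries there (135 to 291.1 FPKM) lay above its U.NK libraries (84.3 to 126.3 FPKM), a pair that was not tested. The mean on U.SK of “1511” lay below those of the other 7 groups. TEA014697 (scaffold 3862, bases 820395 to 836905, plus strand, 4 exons) was the most even of the 4 genes, with group means between 66.5 ± 36.9 FPKM on U.SK of “1511” and 181.6 ± 65.9 FPKM on Sp.SK of “1601” (SD, n = 3 each). TEA015791 (scaffold 3514, bases 590628 to 597175, plus strand, 5 exons) ranged over groups between 4.98 ± 1.48 FPKM on U.SK of “1511” and 279.9 ± 177.6 FPKM on Sp.NK of “1511” (SD, n = 3 each). TEA021081 (scaffold 2268, bases 33311 to 34730, plus strand, 3 exons) was at 123.7 to 155.1 FPKM in the group means of “1601” and at 0 to 2.93 FPKM in those of “1511”.

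The summed FPKM of the family was 654.5 ± 227.2 on Sp.SK, 834.5 ± 349.6 on Sp.NK, 108 ± 40.5 on U.SK and 344 ± 268.1 on U.NK in “1511” (SD, n = 3 each). In “1601” it was 726 ± 208.3, 648 ± 105.5, 594.3 ± 145 and 586 ± 48.4 in the same order (SD, n = 3 each). The 3 U.SK libraries of “1511” lay between 74.3 and 152.9, and the 9 other libraries of that genotype between 90.6 and 1209, the lowest of them being U.NK library 2. The composition of the sum differed too. TEA028050 led on Sp.SK of both genotypes, with 37.7% of the sum in “1511” and 27.4% in “1601”. TEA014697 led on U.SK of “1511” with 61.6%, and TEA021081 led on U.SK of “1601” with 26.1%. In bulk roots, fewer cells that express a gene and less RNA per cell cannot be told apart.

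**Figure D1:**
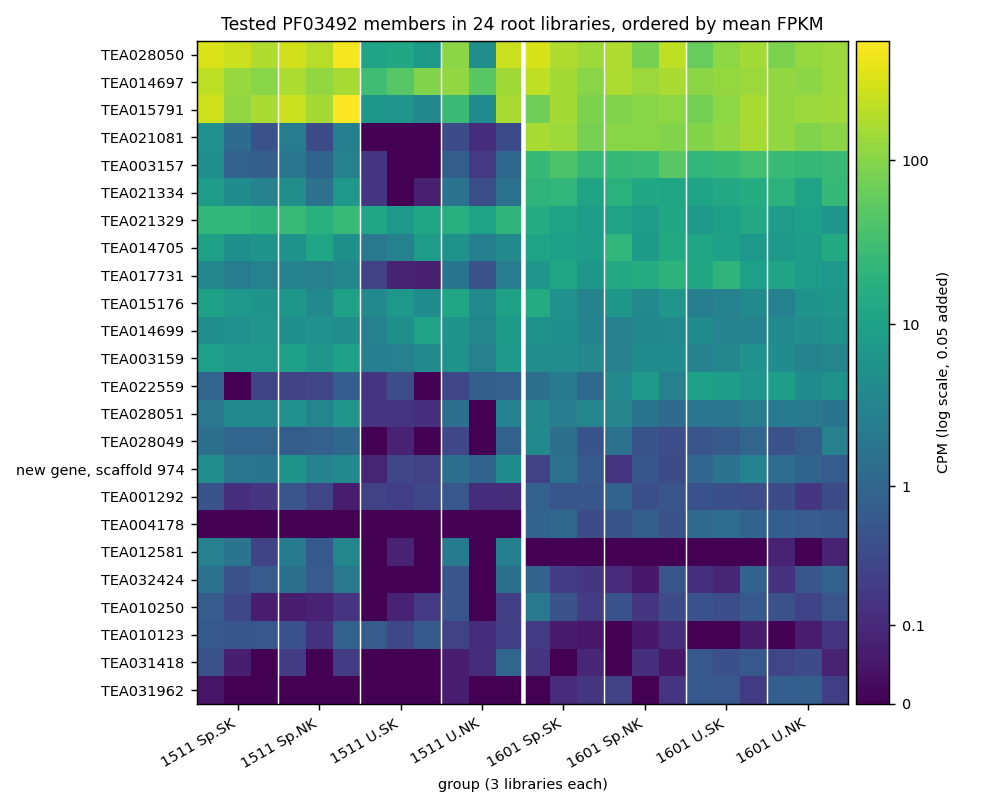
CPM of the 24 tested members (rows, from the highest to the lowest mean FPKM) in the 24 libraries (columns, 3 per group), on a log colour scale with 0.05 added. The 3 columns of “1511” U.SK are darker than the rest of that genotype for many members, and TEA021081, TEA003157 and TEA022559 are darker in “1511” than in “1601”.

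Members differed between the genotypes in both directions. Over the 4 conditions, 16 of the 24 tested members were called between “1511” and “1601”, 6 higher and 10 lower in “1511”. Between these clones 61.3% of all genes tested were called (28.5% higher and 32.8% lower), so the share of members called was near that of all genes. The members' median difference was −0.75 on the log2 scale (−0.74 with genes at or near 0 counts set to their bound), against −0.04 for all genes. In leave-one-out fits, 13 of the 16 were called throughout. The exceptions were the newly assembled member on scaffold 974, which was lost in 13 of 24 fits (adjusted p up to 0.0931), TEA014699, which was lost in 8 of 24 (up to 0.0995), and TEA012581, which was lost in 1 of 24 (adjusted p = 1).

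In absolute mean CPM, the largest difference among the members called was in TEA021081, 1 of the 4 most abundant members in “1601”. It had 0 to 5.29 CPM in the 12 libraries of “1511” (median 0.363), against 79.0 to 160.0 CPM in the 12 of “1601” (median 105.1). The mean was 102-fold lower in “1511” (adjusted p = 4.06e-12). The genotypes did not overlap in any condition. TEA003157 (scaffold 716, bases 185070 to 186188, minus strand, a single exon) had 0 to 5.05 CPM in “1511” (median 0.821), against 22.6 to 49.4 CPM in “1601” (median 25.4), and its mean was 23.5-fold lower in “1511” (adjusted p = 4.01e-11). TEA021334 (scaffold 1968, bases 549906 to 552275, minus strand, 3 exons) had 0 to 8.17 CPM in “1511”, against 10.5 to 24.5 CPM in “1601”, and its mean was 5.77-fold lower in “1511” (adjusted p = 1.48e-09). These genes formed a group that was clearly counted in every root library of “1601” and nearly silent in some libraries of “1511”.

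TEA017731 (scaffold 713, bases 750643 to 754519, minus strand, 3 exons) belonged to the same group, with 0.0649 to 3.51 CPM in “1511”, against 6.34 to 20.7 CPM in “1601”, a mean that was 6.15-fold lower in “1511” (adjusted p = 1.31e-10). TEA022559 (scaffold 502, bases 1378140 to 1380475, plus strand, 3 exons) had 0 to 0.996 CPM in “1511”, against 1.15 to 9.93 CPM in “1601” (12.4-fold lower in “1511”, adjusted p = 6.09e-08). A further member, named after its values were seen, had no count in one genotype. TEA004178 had 0 counts in all 12 libraries of “1511”, against 0.382 to 1.31 CPM in the 12 of “1601”, and it was at least 4.37-fold lower in “1511” when set against a floor of 3 counts per library (adjusted p = 3.74e-08). The opposite case was TEA012581 (scaffold 3313, bases 1118267 to 1120922, minus strand, 4 exons). It had counts in 9 libraries of “1511”, up to 3.51 CPM, against 1 count in each of 2 libraries of “1601”. The ratio of the pooled counts was 181 (95% exact interval 49.8 to 1503, counting error only) and the adjusted p was 0.0134. TEA004178 and TEA012581 had enough counts to be tested only through the genotype where they were higher. The same was true of TEA031962 and TEA010123, which were called as well and lie outside the rule for named members. TEA031962 had 2 counts in “1511”, against 68 in “1601”. TEA010123 reached 0.852 CPM in “1511”, against 0.213 CPM in “1601”. The p-values of these genes give no support beyond these values.

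**Figure D2:**
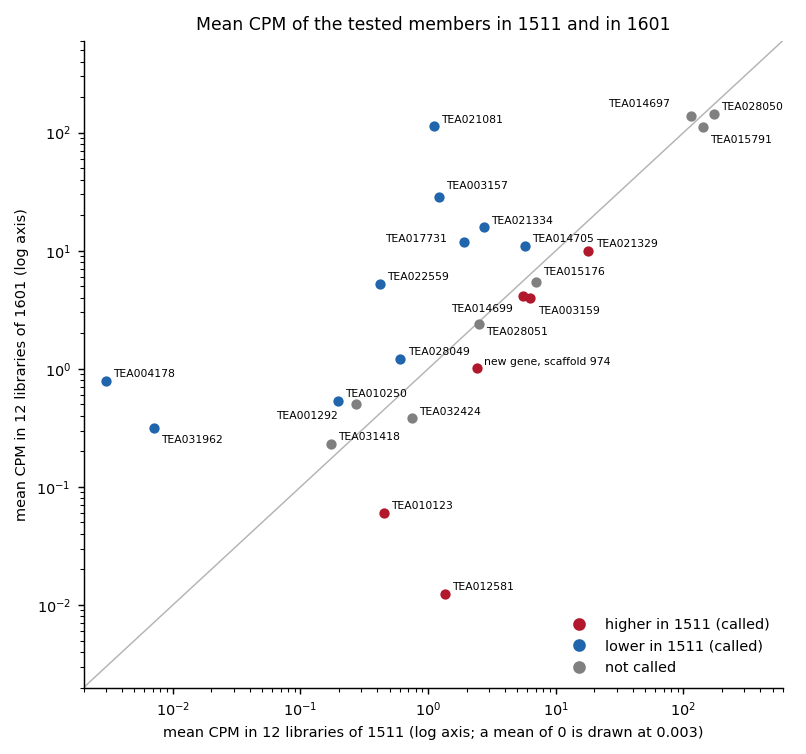
Mean CPM of each tested member over the 12 libraries of “1511” (x axis) and of “1601” (y axis), both on log axes, with the diagonal of equal means. Points in blue were called lower and points in red higher in “1511”, and TEA028050, TEA014697 and TEA015791 sit on or near the diagonal while TEA021081 lies far above it at 1.12 and 113.5 CPM.

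On scaffolds 716 and 1968, members within 200 kb of each other were called in opposite directions. On scaffold 716, TEA003157 was lower in “1511”, and TEA003159 (bases 192728 to 203216, same strand) was higher, at 2.62 to 10.2 CPM in “1511” and 2.81 to 5.46 CPM in “1601” (log2 difference 0.57, SE 0.16, adjusted p = 0.00372). The third gene there, TEA003158, had 2 counts in all, in a single U.SK library of “1511”. On scaffold 1968, TEA021334 was lower and TEA021329 (bases 510030 to 518195) was higher in “1511”, at 6.93 to 27.1 CPM against 6.42 to 15.5 CPM in “1601” (log2 difference 0.79, SE 0.14, adjusted p = 7.96e-05). In both pairs the genotypes' ranges overlapped for the gene that was higher in “1511”.

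On scaffold 3862, 4 members lay within 361.6 kb. Of these TEA014705, named after its values were seen, was lower in “1511” (1.96 to 11.5 CPM, against 6.87 to 22.04 CPM in “1601”; log2 difference −0.96, SE 0.23, adjusted p = 0.00137). TEA014699 was higher (2.86 to 10.3 CPM, against 2.81 to 5.76 CPM in “1601”; log2 difference 0.44, SE 0.18, adjusted p = 0.0339). TEA014697, far more abundant than either, was not called (log2 difference −0.35, SE 0.19, adjusted p = 0.117), and TEA014703 was not tested. On scaffold 155, TEA028050 was not called (log2 difference −0.48, SE 0.35, adjusted p = 0.243), and TEA028051 was not called either. Their neighbour TEA028049 was called lower in “1511”, with a mean of 0.606 ± 0.507 CPM, against 1.21 ± 1.12 CPM in “1601” (SD, n = 12 each, adjusted p = 0.00652). Its medians stood the other way, at 0.768 CPM in “1511” and 0.667 CPM in “1601”. The libraries overlapped, at 0 to 1.48 CPM in “1511” and 0.402 to 4.00 CPM in “1601”. On Sp.NK its means were 0.867 ± 0.175 CPM in “1511” and 0.833 ± 0.654 CPM in “1601” (SD, n = 3 each). TEA028052 had at most 2 counts in a library. The newly assembled member on scaffold 974 (bases 93558 to 140224, minus strand) was 2.40-fold higher by mean CPM in “1511” (log2 difference 0.88, SE 0.36, adjusted p = 0.0387). On U.SK its means stood the other way, at 0.218 ± 0.121 CPM in “1511” and 1.89 ± 1.04 CPM in “1601” (SD, n = 3 each). Its exons overlap those of another newly assembled member on the plus strand (bases 94482 to 107150), which was not tested, and because the strand setting of the counting is not given, reads of these 2 genes cannot be told apart. How reads that match several close members were counted is not given either, so the split between neighbours is uncertain. Green tissue markers moved with the genotype as well. In “1511” 20 of 23 tested chlorophyll a-b binding genes were lower and 1 was higher, against 32.8% and 28.5% of all genes. The part of these markers in the members' differences was not tested.

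**Figure D3:**
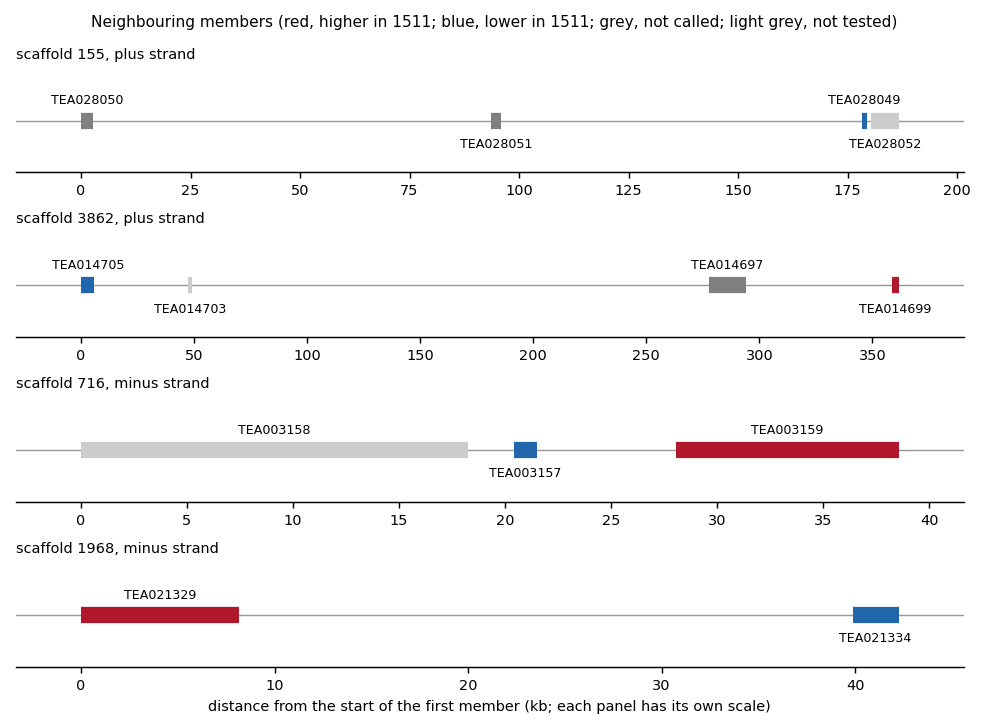
Members on 4 scaffolds, drawn to scale as distance in kb from the start of the first member, each panel with its own scale. Blue genes were called lower and red genes higher in “1511” than in “1601”, dark grey genes were not called and light grey genes were not tested; blue and red genes stand next to each other on scaffolds 716 and 1968, and at the ends of the stretch shown for scaffold 3862.

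Part of the family was lower under homogeneous K starvation in “1511”. Comparing U.SK with U.NK, 7 of the 24 tested members fell and none rose, while 7.84% of all genes tested were called, 1.96% higher and 5.88% lower. The members' median log2 difference was −2.57, or −0.80 with the 12 members that had 3 counts or fewer in every library of a group set to their bound, and the median of all genes was 0. By unadjusted p, 14 members were under 0.05, a count given without the share of all genes. TEA017731 had 0.245, 0.0779 and 0.0649 CPM on U.SK, against 1.75, 0.479 and 2.39 CPM on U.NK. The groups did not overlap, and the ratio of U.NK to U.SK by pooled counts was 12.6 (95% exact interval 5.20 to 39.9, counting error only; adjusted p = 0.00414). It was the only member called in all 6 leave-one-out fits.

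TEA028050 had 11.4, 12.6 and 7.73 CPM on U.SK, against 108, 5.09 and 253 CPM on U.NK, so the groups overlapped through library 2 of U.NK (log2 difference −3.53, SE 0.78, adjusted p = 0.0101). TEA015791 had 6.62, 6.23 and 3.70 CPM on U.SK, against 28.0, 4.55 and 164 CPM on U.NK (log2 difference −3.58, SE 0.80, adjusted p = 0.0108). Library 2 of U.NK lay within the range of U.SK for TEA015791 and below all 3 U.SK libraries for TEA028050. It was the lowest of its group for 20 of 23 members with counts, against 41.2% of all genes. The other members called were the newly assembled one on scaffold 974 (log2 difference −3.30, SE 0.78), TEA021334 (ratio of U.NK to U.SK 16.7, 95% exact interval 5.48 to 83.2), TEA028051 (9.88, 4.34 to 27.7) and TEA012581 (69.2, 12.1 to 2762). The one on scaffold 974 had 1 to 4 counts per library on U.SK. TEA014697 was at 30.3, 47.0 and 92.5 CPM on U.SK, against 117, 50.05 and 143 CPM on U.NK, and was not called (log2 difference −0.87, SE 0.38, adjusted p = 0.156). The count of 7 depended on single libraries. It was 14 without U.NK library 2, 1 without U.NK library 3, 2 without U.SK library 1 and 4 without U.SK library 2. With the 12 libraries of “1511” fitted alone none was called of 19 members tested, and with limma voom 15 were.

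**Figure D4:**
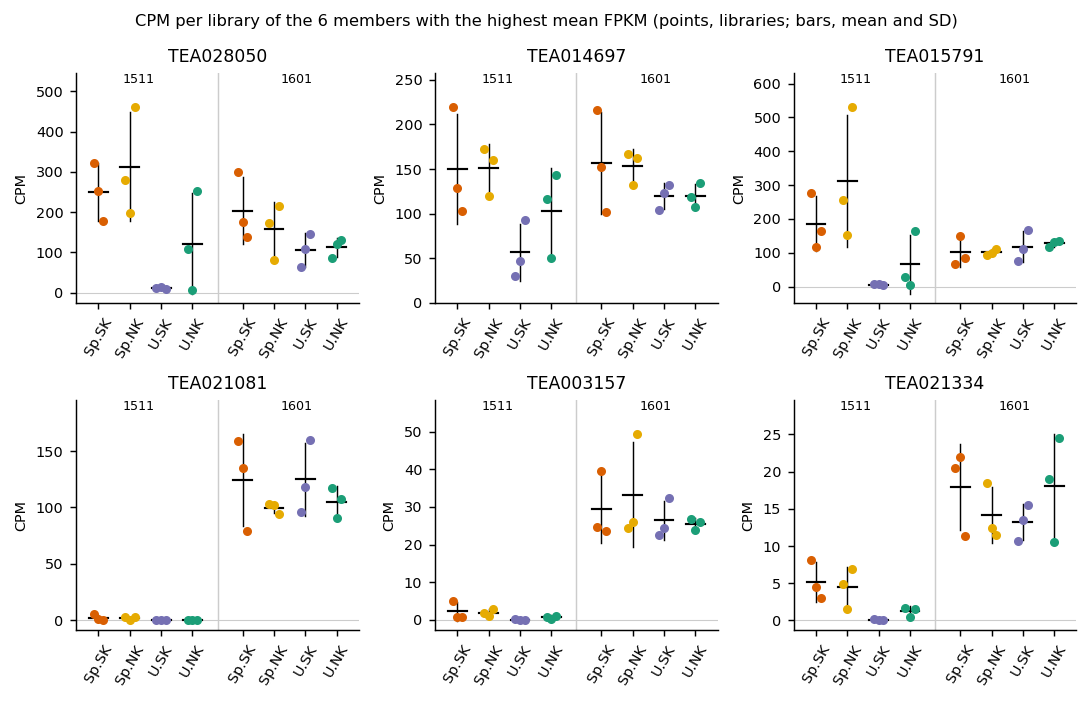
CPM of the 6 members with the highest mean FPKM in each library (points) with the group mean (horizontal bar) and SD (vertical bar, n = 3), “1511” left and “1601” right in each panel. For TEA028050 and TEA015791 the U.SK libraries of “1511” lie between 3.70 and 12.6 CPM, below its 6 Sp.SK and Sp.NK libraries, and TEA021081 is near 0 throughout “1511”.

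Of all comparisons between conditions, that of the K-starved roots in “1511” called the most members. On Sp.SK, where the same plants had K on the other side, 14 of the 24 tested members were higher than on U.SK and none was lower. In this comparison 31.1% of all genes were called, 17.4% higher and 13.8% lower. The members' median log2 difference was 2.75, or 1.40 with 12 members at their bound, and the median of all genes was 0. The U.SK libraries here are those of the comparison with U.NK above, and the comparisons are not independent. All 14 members had the 3 Sp.SK libraries above the 3 U.SK libraries. They were picked by their call in this comparison, and the share of all genes separated in this way is not given. That separation is therefore no result about the family. All 6 split-root libraries, of Sp.SK and Sp.NK, were above the 3 U.SK libraries for 14 of the 24 tested members, against 18.5% of all genes. The 14 calls were kept in each alternative fit, and 11 of them in all 6 leave-one-out fits. TEA014697 and TEA032424 were lost without Sp.SK library 1 or U.SK library 1 (adjusted p up to 0.0713 and 0.0593). TEA012581 was lost without Sp.SK library 1, U.SK library 1 or U.SK library 3 (adjusted p up to 0.0714).

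Among the abundant members, TEA028050 had 322, 253 and 178 CPM on Sp.SK, against 11.4, 12.6 and 7.73 CPM on U.SK (log2 difference 4.57, SE 0.81, adjusted p = 0.000711). TEA015791 had 275, 116 and 165 CPM on Sp.SK, against 6.62, 6.23 and 3.70 CPM on U.SK (log2 difference 5.08, SE 0.85, adjusted p = 0.000486). TEA014697 had 220, 129 and 102 CPM on Sp.SK, against 30.3, 47.0 and 92.5 CPM on U.SK (log2 difference 1.41, SE 0.38, adjusted p = 0.00936). For TEA028050 and TEA015791 the lowest Sp.SK library lay far above the highest U.SK library, whereas for TEA014697 the groups nearly met.

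Of the members that were low in “1511” throughout, TEA021334 had 8.17, 4.44 and 2.99 CPM on Sp.SK, against 0.164, 0 and 0.0649 CPM on U.SK, a ratio of pooled counts of 77.6 (95% exact interval 26.4 to 378; adjusted p = 0.000156). TEA017731 had 3.43, 2.43 and 2.94 CPM on Sp.SK, against at most 0.245 CPM on U.SK (ratio 24.6, 95% exact interval 10.3 to 76.5; adjusted p = 0.000149). TEA021081 had 5.29, 1.22 and 0.452 CPM on Sp.SK and no count on U.SK, which is at least 10.3-fold higher against a floor of 3 counts per library (adjusted p = 0.00143). These members rose to levels that were still below every library of “1601”. TEA003157 (ratio 56.0, 95% exact interval 15.3 to 466), TEA028049 (48.6, 8.47 to 1946), TEA012581 (73.6, 12.9 to 2932) and TEA028051 (21.1, 9.53 to 58.2) rose as well. Counts per Sp.SK library were uneven, from 14 to 147 for TEA003157 and from 5 to 82 for TEA012581. Library 1 of “1511” Sp.SK was the highest of its group for 20 of 23 members with counts, against 38.9% of all genes. TEA032424, named after its values were seen, had no count on U.SK and was at least 4.13-fold higher on Sp.SK. Smaller changes were found for TEA003159 (log2 difference 1.29, SE 0.32, adjusted p = 0.00558) and TEA021329 (1.12, SE 0.29, adjusted p = 0.00714). For the newly assembled member on scaffold 974 the log2 difference was 3.64 (SE 0.77, adjusted p = 0.00206), with 1 to 4 counts per library on U.SK.

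Some of the gene lists of dividing cells moved in the same comparison, in which 17.4% of all genes were higher and 13.8% lower. Of the MCM genes, which code for subunits of the helicase that replicates DNA, 6 of 11 tested were higher on Sp.SK and none was lower, and the 15 genes summed to 115 to 136.1 CPM on Sp.SK, against 64.5 to 77.5 CPM on U.SK. Of the kinesins, motor proteins of which many serve cell division, 49 of 87 tested were higher and 1 was lower, with 977.1 to 1243 CPM on Sp.SK, against 583.7 to 750.7 CPM on U.SK. Core histone genes were higher for 15 of 39, and cyclins for 18 of 44 with 7 lower. The sums of these lists overlapped between the groups. Histones summed to 2470 to 3523 CPM on Sp.SK, against 2786 to 3151 CPM on U.SK. Cyclins summed to 605.3 to 635.1 CPM on Sp.SK, against 612.5 to 671.2 CPM on U.SK. The Casparian strip family summed to 907.9 to 1618 CPM on Sp.SK, against 2568 to 2929 CPM on U.SK, although 9 of its 32 tested genes were called higher and 1 lower. Between U.SK and U.NK, 4 of 11 MCM genes and 13 of 87 kinesins fell, against 5.88% of all genes. Of the histones 3 of 39 fell, and of the cyclins 5 of 44 fell and 1 rose. The part of these shifts in the members' changes was not tested.

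No member passed the test between the sides of the split roots of “1511”. Between Sp.SK and Sp.NK, 0 of 24 members were called in edgeR, where 0% of all genes tested were, and 0 were under an unadjusted p of 0.05, with 0 called in DESeq2 and 0 in limma voom. TEA028050 had 322, 253 and 178 CPM on Sp.SK, against 281, 197 and 461 CPM on Sp.NK (log2 difference −0.32, SE 0.69, adjusted p = 0.988). The sides come from the same plants, which the fit did not use. Comparing Sp.NK with U.NK, where both root parts stood in K, 1 of 24 members was called, and 4.61% of all genes were. DESeq2 called 4 members, limma voom 10 and the fit with the replicate number as a block 3, while none was called without a filter on low counts or with the 12 libraries of “1511” alone. TEA021334 had 4.87, 1.61 and 6.97 CPM on Sp.NK, against 1.65, 0.419 and 1.57 CPM on U.NK (log2 difference 1.88, SE 0.53, adjusted p = 0.0469). The groups overlapped by 1 library, and the call was lost when Sp.NK library 1 or 3 or U.NK library 1 or 2 was left out (adjusted p up to 0.246). Without U.NK library 3, 7 members were called. Sp.NK held the highest of the 4 group means of “1511” for 12 of 23 members with counts, against 31.6% of all genes, and U.SK the lowest for 18 of 23, against 38.6%.

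In “1601”, 1 of the 24 tested members was called by edgeR over the 4 comparisons between conditions, in Sp.SK against U.SK, where limma voom called 8. Between U.SK and U.NK, 0 of 24 members were called in edgeR (0% of all genes), 0 were under an unadjusted p of 0.05, and DESeq2 and limma voom called 0. TEA028050 had 62.3, 109 and 146 CPM on U.SK, against 86.2, 120 and 130 CPM on U.NK (log2 difference −0.08, SE 0.69). TEA021081 had 96.1, 118 and 160 CPM on U.SK, against 118, 90.7 and 107 CPM on U.NK (log2 difference 0.25, SE 0.50). Both pairs of groups overlapped. Between Sp.NK and U.NK 0 members were called (0.9% of all genes; 2 at an unadjusted p under 0.05, 0 in DESeq2 and 0 in limma voom), and between Sp.SK and Sp.NK 0 (1.34% of all genes; 2 at an unadjusted p under 0.05, 0 in DESeq2 and 1 in limma voom).

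That member was TEA022559, which fell. It had 1.49, 2.16 and 1.15 CPM on Sp.SK, against 9.93, 8.88 and 6.19 CPM on U.SK (log2 difference −2.38, SE 0.61, adjusted p = 0.0262), in a comparison in which 6.82% of all genes were called. The groups did not overlap, and the Sp.NK libraries lay between them at 3.84, 7.23 and 2.74 CPM. The call was kept in each alternative fit but lost when any library other than U.SK library 3 was left out (adjusted p up to 0.105). The neighbour of TEA022559 on scaffold 502, TEA022575, had at most 1 count in a library. In “1601” no tested member had all 6 split-root libraries above the 3 U.SK libraries, against 8.06% of all genes.

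The difference between the genotypes' responses was tested directly. For Sp.SK against U.SK, the response of “1511” minus that of “1601” was called for 10 of 24 members, all of them higher in “1511”, where 14% of all genes were called, 9.15% higher and 4.86% lower. TEA015791 had the response of 5.08 in “1511” and −0.22 in “1601” on the log2 scale, a difference of 5.29 (SE 1.07, adjusted p = 0.00377). TEA028050 had 4.57 in “1511” and 0.94 in “1601”, a difference of 3.63 (SE 1.02, adjusted p = 0.0236). For the newly assembled member on scaffold 974 the difference was 4.87 (SE 1.00, adjusted p = 0.00412), with 1 to 4 counts per library on U.SK of “1511”. TEA017731, TEA021334, TEA021081, TEA003157 and TEA028051 were called as well, with adjusted p = 0.000282, 0.00163, 0.00699, 0.00928 and 0.0257, and for these the U.SK libraries of “1511” had 3 counts or fewer, so that no size is given. TEA014697, the most even of the abundant members, was not called (difference 1.02, SE 0.53, adjusted p = 0.206). TEA022559 was called (difference 3.78, SE 1.10, adjusted p = 0.0276), with a fitted response of 1.40 (SE 0.94, not called) in “1511” and −2.38 (SE 0.61) in “1601”. In “1511” it had 0.996, 0 and 0.282 CPM on Sp.SK, against 0.164, 0.389 and 0 CPM on U.SK, and the call on the difference was lost in 5 of 12 leave-one-out fits (adjusted p up to 0.339). The tenth, outside the rule for named members, was TEA031418, with under 1 CPM in every library. Without U.SK library 1 of “1511” 6 members were called, and 6 of the 10 were called in all 12 leave-one-out fits. For U.SK against U.NK, the genotypes differed in 1 of 24 members, TEA017731 (adjusted p = 0.0206), and in 0.45% of all genes, while DESeq2 called 7 members and limma voom 10. This call was lost without library 2 of “1511” U.SK, library 3 of “1511” U.NK, or library 2 or 3 of “1601” U.NK (adjusted p up to 0.0738). Without library 2 of “1511” U.NK, 6 members were called. For Sp.NK against U.NK 0 of 24 differed (0.231% of all genes), with 4 at an unadjusted p under 0.05, 0 in DESeq2 and 4 in limma voom.

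The enzymes that supply these methyltransferases and clear their product were measured in the same libraries. A list of 45 genes, of which 42 were tested, covered the methyl donor cycle and purine turnover, which leads to xanthosine, the starting point of caffeine synthesis. Between Sp.SK and U.SK of “1511”, 9 of the 42 rose and 4 fell. Over all genes 17.4% rose and 13.8% fell. Of the 7 S-adenosylmethionine synthetase genes, which make the methyl donor, 5 rose and none fell. Of the 3 genes for S-adenosylhomocysteine hydrolase, which removes the product that inhibits methyltransferases, 2 rose. TEA019127, a synthetase, had 375.6, 221.7 and 249.6 CPM on Sp.SK, against 71.5, 85.0 and 73.3 CPM on U.SK, and TEA026890, another synthetase, had 6.94, 2.80 and 3.73 CPM on Sp.SK, against 0.817, 0.701 and 0.974 CPM on U.SK (log2 difference 2.43, SE 0.43, adjusted p = 0.000664). The hydrolase TEA008283 had 16.9, 13.5 and 8.19 CPM on Sp.SK, against 1.72, 2.80 and 2.40 CPM on U.SK (log2 difference 2.48, SE 0.56, adjusted p = 0.00332), and TEA006264, the more abundant hydrolase by CPM, rose by less (log2 difference 0.87, SE 0.20, adjusted p = 0.00316). In none of these genes did the groups overlap. They did overlap for a newly assembled synthetase that was also called (log2 difference 2.45, SE 0.79, adjusted p = 0.0236). It had 5.56, 0.487 and 0.960 CPM on Sp.SK, against 0.164, 0.389 and 0.714 CPM on U.SK.

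Between U.SK and U.NK of “1511”, 4 of the 42 fell and none rose (5.88% and 1.96% of all genes). They were 3 synthetase genes, among them TEA019127 (log2 difference −1.85, SE 0.33, adjusted p = 0.00381) and TEA026890 (−1.55, SE 0.44, adjusted p = 0.0344), and the hydrolase TEA008283 (−2.29, SE 0.56, adjusted p = 0.0179). In “1601” the same comparison called 0 of 42 (0% of all genes). Between Sp.SK and U.SK of “1601” 3 of 42 fell and none rose, near the 6.82% of all genes called. No synthetase or hydrolase was among the 3. One was TEA016437, the methionine synthase of the list, which makes the precursor of S-adenosylmethionine, with 73.21, 148.4 and 127.2 CPM on Sp.SK, against 224.3, 213.7 and 232.8 CPM on U.SK (log2 difference −0.94, SE 0.19, adjusted p = 0.0078). In “1511” it was not called (log2 difference −0.11). The genotypes' responses to Sp.SK against U.SK differed for 8 of the 42, all higher in “1511” (9.15% of all genes higher, 4.86% lower). Of the 8, 5 were synthetases and 1 was TEA008283. Among the purine genes, TEA024175, the IMP dehydrogenase of the list, which commits IMP to xanthosine and guanosine phosphates, was lower in “1511” when Sp.SK was set against U.SK (log2 difference −0.87, SE 0.24, adjusted p = 0.0109) and in “1601” (−0.99, SE 0.24, adjusted p = 0.0209), and lower on Sp.NK than on U.NK in “1601” (−1.08, SE 0.24, adjusted p = 0.0385). Of the nucleoside hydrolases 1 of 16 rose and 1 fell between Sp.SK and U.SK of “1511”, of the deaminases of adenosine and AMP 1 of 8 fell, and of the uricases 1 of 3 fell. TEA028626, from the list of xanthine dehydrogenases and aldehyde oxidases, rose (log2 difference 0.44, SE 0.16, adjusted p = 0.0471). The methyl donor enzymes also serve many other methyltransferases.

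**Figure D5:**
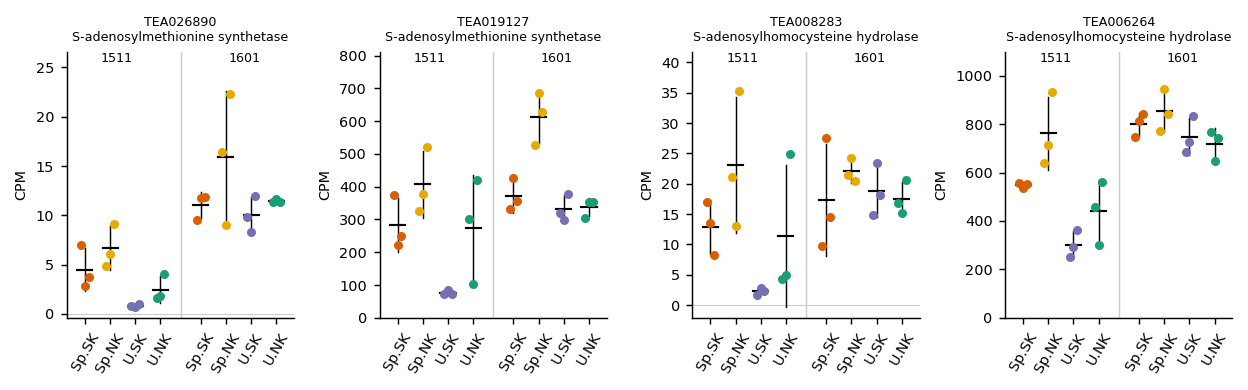
CPM of 2 S-adenosylmethionine synthetase genes and 2 S-adenosylhomocysteine hydrolase genes in each library (points) with the group mean (horizontal bar) and SD (vertical bar, n = 3), “1511” left and “1601” right. In “1511” the U.SK libraries are below the Sp.SK libraries in each panel, for example 71.5 to 85.0 CPM below 221.7 CPM for TEA019127.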

How the data were processed

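The authors deposited raw, whole-number counts of reads per gene for 24 root libraries, which were mapped to groups by sample title. Per the labels and methods, reads were base called with CASAVA 1.7, cleaned and aligned with HISAT2 2.0.5 to the scaffold-level tea genome of the TPIA site (annotation label tpia1), and the table adds newly assembled genes. The counting program and its strand setting are not given in the sources used here. The authors also deposited FPKM, which served only to rank and sum members. CPM was computed from the counts with TMM factors.

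In R 4.3.3, edgeR 4.0.16 fitted 8 group means to the 24 libraries (glmQLFit, 16 residual degrees of freedom) after filterByExpr kept 35557 genes, and 12 comparisons were tested with glmQLFTest, Benjamini-Hochberg adjusted over all genes tested. Alternatives were DESeq2 size factors, DESeq2 1.42.0, limma 3.58.1 voom with quality weights, no filter on low counts, the replicate number as a block, the 12 libraries of a genotype alone, and each library left out. The fit was tested on simulated data. Where every library of a group had 3 counts or fewer, no fitted fold is given but a ratio of pooled counts with a 95% exact interval, or a bound against 3 counts per library. Depth ranged from 13214833 to 26309637 counts, and intervals cover counting error only.

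The members, gene lists and tests were chosen with earlier results of these data known. Named members were the 6 with the highest mean FPKM, up to 3 called per comparison and direction with the largest change and at least 1 CPM on average, those called in 3 or more comparisons, and neighbours within 200 kb. The table of reference gene names at hand matched 0 identifiers.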

Additional observations from a re-analysis of the deposited data

Results flagged for a closer look

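The response of the genotypes to Sp.SK against U.SK differed for 10 members by the interaction term of edgeR's fit, and in each the value for “1511” was the higher. The adjusted p-values were 0.000282 for TEA017731, 0.00163 for TEA021334, 0.00377 for TEA015791, 0.00412 for the newly assembled member on scaffold 974, 0.00699 for TEA021081, 0.00928 for TEA003157, 0.0236 for TEA028050, 0.0257 for TEA028051, 0.0276 for TEA022559 and 0.045 for TEA031418. The first 6 were called in all 12 leave-one-out fits. TEA022559 was lost without library 1 of “1511” Sp.SK (adjusted p = 0.339), among others, and TEA031418 was kept in 3 of 12. For U.SK against U.NK, TEA017731 differed between the genotypes with an adjusted p of 0.0206, and it was kept in 8 of 12 leave-one-out fits.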

How the results depend on the processing

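The 12 counts of called members were compared over the alternatives. For U.SK against U.NK in “1511”, the count of 7 was 15 with limma voom, 0 with the 12 libraries of the genotype alone, and 1 (without U.NK library 3) to 14 (without U.NK library 2) in leave-one-out fits, with 2 without U.SK library 1 and 4 without U.SK library 2. For Sp.NK against U.NK in “1511”, the count of 1 was 0 without a filter on low counts and with the 12 libraries alone, 4 with DESeq2, 10 with limma voom, and 0 to 7 in leave-one-out fits (7 without U.NK library 3). For Sp.SK against U.SK in “1601”, it was 8 with limma voom and 0 to 1 in leave-one-out fits, and for Sp.SK against Sp.NK in “1601” 1 with limma voom. The genotype difference for U.SK against U.NK gave 7 with DESeq2, 10 with limma voom and 0 to 6 in leave-one-out fits (6 without U.NK library 2 and 2 without U.SK library 3 of “1511”). That for Sp.SK against U.SK gave 6 to 11 in leave-one-out fits (6 without “1511” U.SK library 1), and that for Sp.NK against U.NK 4 with limma voom and 0 to 1 in leave-one-out fits. The share of all genes called by each of these fits is not given, so the counts are no result about the family. The cause of these differences was not tested. The 14 members of Sp.SK against U.SK in “1511” were called in each alternative fit on all their libraries, and 11 of them in all 6 leave-one-out fits.

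The labels share replicate numbers, and whether these pair the libraries is not stated. Same-numbered deviations had r from −0.29 to 0.493 over 36 pairs, 6 of them over 0.1. The highest were 0.417 and 0.493, for libraries 2 and 3 of U.NK and Sp.NK in “1511”. Such values, from 3 libraries per group, cannot settle whether the libraries were paired. The replicate block moved Sp.NK against U.NK in “1511” to 3 members, and the other counts by less than 1.5 times.

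With 3 libraries per group, changes in members under 1 CPM rest on few counts.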
